A study of Mus musculus with 8 samples.

Results

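The small intestine of Ah-Cre mice in which both floxed copies of Ascl2 had been deleted was compared with that of control mice 3 days after induction of Cre. The arrays were chosen by their title, and they are 2 of the 8 arrays of the series. Both arrays carry the same 2 RNAs with the dyes exchanged, so they stand for 1 RNA pair, and the difference between them measures dye and array error and not the spread between mice. The deleted RNA came from epithelial cells of Ah-Cre/Ascl2 floxed/floxed animals and the control RNA from epithelial cells of Ah-Cre/Ascl2 floxed/wt animals, which carry the same Cre and keep 1 wild-type copy. The array titles call these controls wildtype. On array 1 the deleted RNA was labelled with Cy3, and on array 2 with Cy5. In Ah-Cre mice the recombinase is made from the Cyp1a1 promoter, which is switched on through the aryl hydrocarbon receptor. The inducing agent, the age and number of the mice behind each RNA, and the part of the gene that is floxed are not given in the sources used here. A second RNA pair of the same genotypes, taken on day 5 and hybridised to 2 arrays of another slide, is used here for comparison. So are 2 sorts of GFPhi against GFPlo cells from Lgr5-EGFP-ires-CreERT2 mice, in which GFP is made from the Lgr5 promoter. In the text, array values are log2 ratios of deleted over control unless stated otherwise.

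Ascl2 is a basic helix-loop-helix transcription factor made in the Lgr5-positive stem cells at the base of the small intestinal crypt, where Wnt signals maintain these cells. Crypt base stem cells lie between Paneth cells, which secrete antimicrobial peptides. Their daughters divide in the crypt as transit-amplifying cells and then become absorptive enterocytes or the secretory goblet, enteroendocrine and tuft cells of the villus. The comparison describes which genes differed between deleted and control epithelium in this RNA pair, and which of them depend on Ascl2 was not tested.

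Each array held 43379 spots other than controls, which read 41174 probes and 27576 genes. Between 58.95% and 66.4% of the probes were well above background in each RNA on day 3. A gene was taken as measured where its brightest probe was well above background in at least 1 of the 2 RNAs on both arrays, and 17312 genes passed. A gene was called higher or lower where it differed at least 2-fold in that direction on each of the 2 arrays. Of the measured genes 276 (1.59%) were called higher and 274 (1.58%) were called lower, and 0 differed 2-fold in opposite directions on the 2 arrays. The median SD between the 2 arrays of a gene was 0.10, and 77.25% of genes had 1 sign on both. With 1 RNA pair there is no replicate and no test of these calls. The counts of called members given below for gene lists are to be read beside these shares of 1.59% and 1.58%. A count of 1 or 2 members is a description and not a result about its list. Neither the number of calls nor the size of a ratio tells how another pair of mice would differ. The median of all measured genes was 0.00, which the normalization within an array sets near 0, so every ratio is relative to the bulk of the transcriptome. In whole epithelium, fewer cells of a type and less RNA per cell cannot be told apart.

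**Figure D1:**
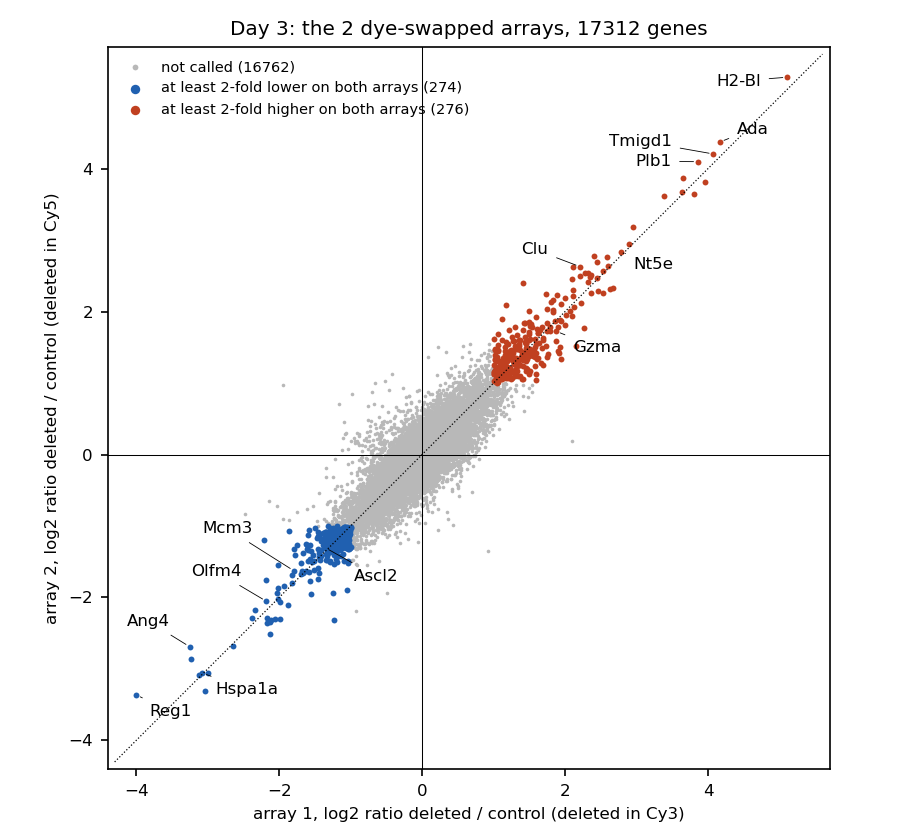
Log2 ratio of deleted over control of each of 17312 measured genes on array 1 (x axis) and on array 2 (y axis) of day 3, with the 276 genes called higher in red, the 274 called lower in blue and all others in grey; the dotted line marks equal ratios. Called genes lie along the diagonal, from Reg1 at -4.0 and -3.36 to H2-Bl at 5.10 and 5.28.

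Ascl2 RNA was lower in the deleted epithelium on both arrays. The scanner's signal of its probe was 283.9 in deleted against 924.9 in control RNA on array 1 and 321.8 against 924.2 on array 2. The log2 ratios were -1.36 and -1.30, with a mean of -1.33 and a level 2.51-fold lower. On day 5 the ratios were -1.34 and -1.29. The probe lies at chr7:142777924-142777983 on the minus strand of mouse build mm8. Since the sources used here do not name the floxed part, whether the probe lies within it was not tested, and the remaining signal does not measure the share of recombined cells. Cyp1a1, the gene whose promoter drives the recombinase, was at 0.60 and 0.83.

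Olfm4, a gene of crypt base stem cells whose product is secreted, had a signal of 3382 in deleted against 15841 in control RNA on array 1 and 3961 against 16271 on array 2. Its ratios of -2.18 and -2.05 make it 4.34-fold lower, and a second Olfm4 probe read -2.17 and -2.24. Lgr5, the receptor for R-spondins that defines these cells, had ratios nearer 0 than Olfm4 on both arrays, at -0.71 and -0.33, and was not called. The deleted Lgr5 signals were 217.5 and 241.9 and the control signals 406.6 and 325.5, and the ratio moved between the arrays by more than those of Ascl2 or Olfm4. Both marker genes of the labelled experiment, Ascl2 and Olfm4, were measured in all 4 channels and were lower in the RNA labelled deleted.

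**Figure D2:**
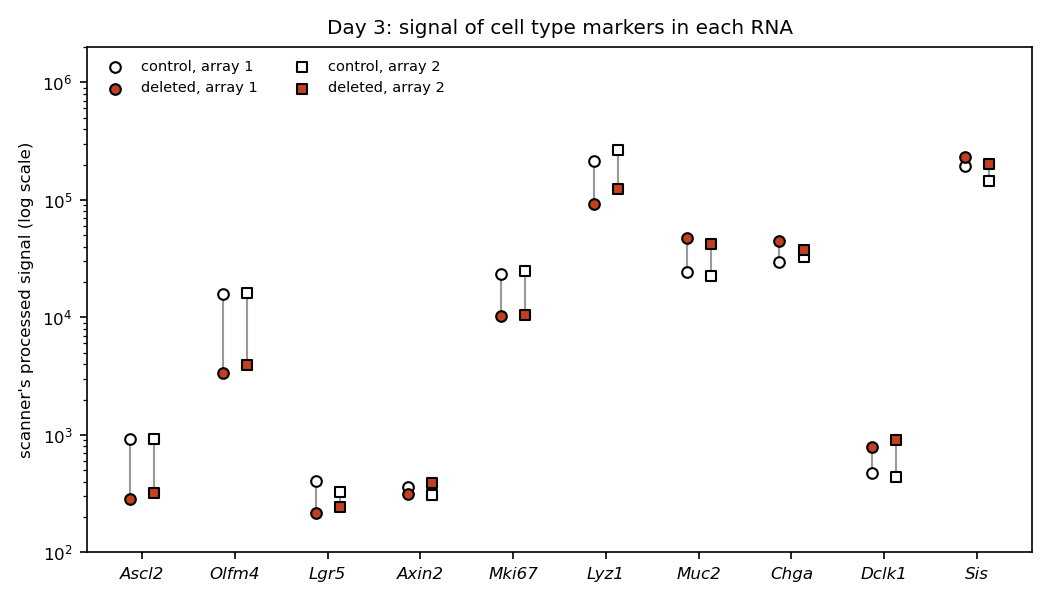
Scanner's processed signal (log scale) of 10 marker genes in control (open) and deleted (red) RNA on array 1 (circles) and array 2 (squares) of day 3, with a line joining the 2 RNAs of an array; levels are to be compared within a gene and not between genes, whose probes differ. On each array the deleted signals of Ascl2, Olfm4, Lgr5, Mki67 and Lyz1 lie below the control signal, those of Muc2, Chga and Dclk1 lie above, and the Axin2 ratio changes sign between the arrays.

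Of 28 crypt base stem cell genes on the list, 27 were measured, and 22 of them had a mean ratio below 0, at a list median of -0.72 (-0.71 on array 1 and -0.79 on array 2). Called lower were 7 and called higher 0, beside 1.58% and 1.59% of all measured genes. Such lists were drawn from sorts of Lgr5-GFP cells like those of this series, so the count is not independent evidence of direction. Among those called, Prelp, a proteoglycan gene, was at -1.45 and -1.08, and Gkn3, a gastrokine gene, at -1.22 and -1.27. Cdca7, a gene of dividing cells, was at -1.14 and -1.28, and Ephb3, an ephrin receptor that positions cells along the crypt, at -1.09 and -1.29. Ascl2, Olfm4 and the receptor gene Tnfrsf19 at -1.08 complete the 7. The 7 reserve stem cell genes were at a median of -0.53, 6 of them below 0. Lrig1, an inhibitor of ErbB receptors, was at -0.81 and Mex3a, an RNA-binding protein gene, at -0.70. The exception was Clu, the clusterin gene, which was called higher at 2.21 and 2.63, or 5.34-fold.

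Wnt targets and feedback genes were less uniform. Of 27 measured members 15 were below 0 and 12 above, with 3 called lower and 0 called higher. The median of the members' mean ratios was -0.30, while the median was nearer 0 on each array alone, at -0.15 on array 1 and -0.18 on array 2. Those called were the cyclin gene Ccnd1 at -1.28 and -1.36, the growth regulator Myc at -1.42 and -1.21, and Ephb3. Axin2, the negative feedback gene commonly used to read Wnt signalling, was at -0.15 and 0.27, a difference within the error between its 2 arrays. Sox9 at -0.81 and Cd44 at -0.81 were not called. Their other probes read -0.82 and -0.11 for Sox9 and -0.80 and -0.17 for Cd44. Among partners and inhibitors of basic helix-loop-helix factors, the Id genes, which bind such factors and keep them off DNA, were higher, with Id1 at 1.14 and 0.85, Id2 at 0.76 and 1.04 and Id3 at 0.77 and 0.30. None was called. Tcf12, an E-protein partner of Ascl factors, was at -0.72 and -0.21, and its other probes read from -0.35 to -0.03. Neurog3, which specifies enteroendocrine cells, was at -0.62. In the Notch list 0 of 20 measured genes were called in either direction. Of these 9 were above 0 and 11 below, at a median of -0.03. Heyl at 0.76 and Dtx1 at 0.73 lay above 0, and Hes1 at -0.41 and Notch1 at -0.46 below.

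Genes of the cell cycle were lower almost without exception. Of 58 DNA replication and G1/S genes, all measured, 57 had a mean ratio below 0, the median was -1.05, and 30 were called lower and 0 higher. Of 62 genes of mitosis and G2/M, all measured, 62 were below 0, the median was -0.99, and 20 were called lower and 0 higher. These counts stand beside 1.58% of all measured genes. The 2 arrays gave like medians, -1.04 and -1.08 for replication and -0.99 and -1.01 for mitosis. With median centring in place of loess the calls fell to 8 and 2, while the medians were -1.21 and -1.15.

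Within the replication machinery, subunits of the MCM helicase, which opens DNA, stood lowest. Mcm3 had ratios of -1.79 and -1.62 and was 3.27-fold lower, and Mcm6 was at -1.6 and -1.32. Cdc45, which activates that helicase, was at -1.18 and -1.42, and Pola1, the catalytic subunit of DNA polymerase alpha, at -1.26 and -1.34. Uhrf1, which carries DNA methylation through replication, was at -1.19 and -1.5, and Dtl, an adaptor of a ubiquitin ligase, at -1.33 and -1.32. In the mitosis list the checkpoint kinase Bub1 stood lowest at -1.31 and -1.23, followed by the kinetochore subunit Spc24 at -1.11 and -1.39. Mki67, whose product marks dividing cells, had a signal of 10290 in deleted against 23218 in control RNA on array 1 and 10422 against 24695 on array 2. Its ratios of -1.15 and -1.28 make it 2.32-fold lower. Ccna2, the cyclin of S and G2 phase, was at -1.35 and -1.08, and Top2a, the topoisomerase that untangles chromosomes, at -1.08 and -1.29. Second probes of Dtl and Top2a read less, at -0.68 and -0.59.

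The promoters of such genes are known to be bound by E2F factors and by the DREAM complex, and the sequences are shown because these members lay below 0 together. A search of the 250 bases before the start in RefSeq promoters (GRCm38.p6) looked for TTTNGCGC, a form of the E2F element, and TTTGAA, the core of the cell cycle homology region, on both strands. Promoters were found for 11603 of the measured genes, for 48 of the 58 replication genes and for 52 of the 62 mitosis genes. TTTNGCGC was in 8 of the 48 (16.7%), against 2.08% of measured genes and 1.31% of all 27025 genes with a promoter. TTTGAA was in 18 of the 52 (34.6%), against 13.8% and 18.3%, and CCAAT, the site of NF-Y, in 36 (69.2%), against 39.7% and 37.5%. The windows below run in the direction of the gene, with 1 match in capitals. In Mki67 another TTTGAA stands in lower case.
Mcm6 (chr1:128359709-128359788, minus strand): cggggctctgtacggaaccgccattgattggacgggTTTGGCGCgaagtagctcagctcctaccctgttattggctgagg
Uhrf1 (chr17:56304092-56304171, plus strand): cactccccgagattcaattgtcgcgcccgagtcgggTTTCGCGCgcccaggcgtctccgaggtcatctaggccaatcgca
Pola1 (chrX:93632250-93632329, minus strand): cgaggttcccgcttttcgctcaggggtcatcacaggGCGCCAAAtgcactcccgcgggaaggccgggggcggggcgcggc
Mki67 (chr7:135716436-135716513, minus strand): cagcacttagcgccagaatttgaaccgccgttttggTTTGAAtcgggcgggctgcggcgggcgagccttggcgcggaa
Top2a (chr11:99024190-99024248, minus strand): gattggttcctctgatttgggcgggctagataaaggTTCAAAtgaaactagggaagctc
In Pola1 and Top2a the match is on the other strand. A match is a description of these letters and shows no binding. For CAGCTG, an E-box of the kind that basic helix-loop-helix factors recognise, the share was 12.1% of the 190 genes called lower that have a promoter and 17.2% of the 174 called higher, against 14.4% of measured genes and 14.7% of all genes.

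Inhibitors of the cell cycle and targets of p53 were above 0 in 22 of 32 measured genes, at a median of 0.20. In each direction 1 was called, beside 1.59% higher and 1.58% lower of all measured genes. Bbc3, a cell death gene, was called higher at 1.02 and 1.02, and Phlda3, an inhibitor of Akt, was called lower at -1.12 and -1.18. The antiproliferative gene Btg2 was at 1.15 and 0.99 and the kinase inhibitor Cdkn1b at 0.74 and 1.25, while other probes read 0.55 and 0.61 for Btg2 and 0.00 for Cdkn1b. Pmaip1 was at 1.10 and 0.76 and Aen at -0.97 and -1.04, so members of the list lay far from 0 on both sides.

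Paneth cell genes were lower. All 13 cryptdins and cryptdin-related genes on the array were measured and had ratios below 0, at a median of -1.40, and 5 were called lower. The arrays disagreed on the size, with a median of -1.86 on array 1 and -0.91 on array 2. These spots are among the brightest of the array, and the genes are near-identical copies whose probes can read each other, so single members are uncertain. Defa3 was at -2.48 and -0.84, Defa23 at -1.86 and -1.06 and Defcr-rs2 at -1.98 and -2.06. Of 17 other genes of Paneth granules 13 were below 0, at a median of -0.74, with 4 called lower and 0 higher. Ang4, an antimicrobial ribonuclease, was at -3.25 and -2.69, or 7.84-fold lower, and a second Ang4 probe was at -2.18. The lectin gene Itln1 was at -1.78 and -1.41, the pentraxin gene Mptx1 at -1.62 and -1.26, and the phospholipase gene Pla2g2a at -1.25 and -1.24. Lyz1, the Paneth lysozyme, had signals of 93036 in deleted against 213168 in control RNA on array 1 and 123796 against 268378 on array 2. Its ratios of -1.46 and -0.94 kept it outside the call.

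The arrays differed most over the brightest genes. Over the 200 brightest genes the median ratio was -0.53 on array 1 and 0.26 on array 2, and 52.5% had 1 sign on both. Over the next 800 genes these medians were -0.04 and 0.04, and the share was 80.25%. Ribosomal protein genes, which are bright, were all below 0 in the mean, 65 of 65 with a median of -0.35, but the median was -0.65 on array 1 and -0.06 on array 2, and 0 were called. Subunits of oxidative phosphorylation were at -0.38 and 0.00. The part of brightness in these values was not tested.

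Lists of the secretory cells of the villus differed among themselves. Goblet cell genes had a median of 0.11 over 33 measured members (21 above 0). Called higher were 2 and lower 0, beside 1.59% and 1.58% of all measured genes. With median centring the median was -0.02 and 0 were called. Zg16, a lectin of mucus granules, was at 1.41 and 2.40, and Clca1, a mucus-processing protein, at 1.07 and 1.69, and the deleted signal of Zg16 was saturated on 1 array. Tff3, a trefoil peptide, was at 0.93 and 1.54. Muc2, the main secreted mucin, had signals of 47462 in deleted against 24495 in control RNA on array 1 and 42029 against 22622 on array 2, a 1.92-fold difference at 1.03 and 0.85. The 3 other Muc2 probes read 0.48, 0.67 and 0.65.

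Enteroendocrine genes were at a median of 0.08 over 44 measured members, 27 of them above 0. The 3 calls, beside 1.59% higher and 1.58% lower of all measured genes, were hormones and went both ways. Neurotensin (Nts) was higher at 1.90 and 1.78 and peptide YY (Pyy) at 1.2 and 1.55, while glucagon (Gcg) was lower at -1.36 and -1.09. With median centring 1 was called higher and 0 lower. Cholecystokinin (Cck) was at -0.83, with a second probe at -0.01, and the granin Chga at 0.59 and 0.15. Tuft cell genes were higher in 24 of 25 measured members at a median of 0.48, and 1 was called, beside 1.59% of all measured genes. That gene was Rgs13, a regulator of G-protein signalling, at 1.31 and 1.30. Trpm5, the taste-transduction channel, was at 1.0 and 1.11 with array 1 just short of 2-fold, and the tuft cell kinase gene Dclk1 at 0.51 and 0.92. Other Dclk1 probes read 0.83, 0.69 and 0.08.

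Enterocyte genes were higher. Of 36 measured brush border hydrolases and their partners 32 were above 0, at a median of 0.76 (0.59 on array 1 and 0.80 on array 2), and 8 were called higher and 1 lower. Nt5e, the ectonucleotidase that makes adenosine from AMP, was at 2.78 and 2.83, although a second probe was at 0.53. Enpp3, a nucleotide phosphodiesterase, was at 2.09 and 1.94 (other probes read 2.12 and 0.39), the meprin subunit Mep1a at 1.62 and 1.34, Enpp7, which cleaves sphingomyelin, at 1.66 and 1.28, and the adhesion gene Ceacam20 at 1.39 and 1.05. The exception was Tmprss15, enteropeptidase of the duodenum, at -1.51 and -1.49, although its second probe was at -0.19. Sis, sucrase-isomaltase, was at -0.01 and 0.63, a difference within the error between its 2 arrays in a very bright spot. With median centring 3 brush border genes were called higher.

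Of 49 measured solute transporters of the enterocyte 37 were above 0, at a median of 0.51, with 8 called higher and 1 lower. The concentrative nucleoside transporter Slc28a2 stood highest at 3.96 and 3.82, or 14.8-fold. The phosphate transporter Slc34a2 was at 2.58 and 2.76, the monocarboxylate transporter Slc5a8 at 2.41 and 2.77, the riboflavin transporter Slc52a3 at 2.23 and 2.12 and the monocarboxylate transporter Slc5a12 at 1.64 and 1.56. The sulphate transporter Slc13a1 was called lower at -1.68 and -1.63. Genes of fat absorption were above 0 in 29 of 36 at a median of 0.35, with 1 called higher, beside 1.59% of all measured genes. The cholesterol transporter Npc1l1 was called, at 1.18 and 1.22, and the fatty acid transporter Cd36 was at 1.2 and 0.91 and the apolipoprotein gene Apoa4 at 1.25 and 0.73.

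Genes of the ileum had a median of 0.79 (0.53 on array 1 and 0.87 on array 2) over 23 measured members, with 7 called higher and 2 lower. Those of the duodenum had a median of 0.10 over 28, with 2 called higher and 1 lower, beside 1.59% and 1.58% of all measured genes. The regional lists share members with lists given above, so their calls are not separate. Mep1a, Nts and Pyy are among the ileal genes called higher, and Tmprss15 is the duodenal gene called lower. Plb1, a brush border phospholipase, was 15.7-fold higher at 3.86 and 4.10, and Reg3b, an antimicrobial lectin, was at 1.81 and 2.14. On the duodenal side Ada, adenosine deaminase, was 19.3-fold higher at 4.17 and 4.37, while Cybrd1, the ferric reductase of iron uptake, was at -0.93, with a second probe at -0.10. Of the genes that define the ileum, chosen here after their values were seen, the bile acid transporter gene Slc10a2 was at 0.51, and the bile acid binding protein gene Fabp6 was not well above background in either RNA. With median centring the calls were fewer in most lists: 4 lower among crypt base stem cell genes, 3 among cryptdins, 1 among other Paneth genes, and 5 higher among solute transporters and 2 among ileal genes. Under that setting 0 genes were called among tuft cell, fat absorption, cell cycle inhibitor and general epithelial genes. The sources used here do not name the stretch of the intestine each RNA came from, and its part in these values was not tested.

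Markers of immune cells and MHC class II genes also differed between the 2 RNAs. Of 28 measured markers of T cells and intraepithelial lymphocytes 25 were above 0, at a median of 0.93 (0.84 on array 1 and 0.94 on array 2), and 9 were called higher and 0 lower. Gzma, a granule protease of cytotoxic cells, was at 1.88 and 1.72, the receptor gene Klrd1 at 1.45 and 1.64, the interleukin 2 receptor subunit Il2rb at 1.69 and 1.25, and Gzmb at 1.36 and 1.55. Of genes chosen after their values were seen, the T cell receptor subunits Cd3g and Cd3d were called too, at 1.28 and 1.08, while Cd8a was at 0.96 and its partner Cd8b1 lay the other way at -0.52. MHC class II genes were above 0 in 7 of 8, at a median of 0.98, with H2-Aa at 1.92 and 1.5, the invariant chain Cd74 at 1.48 and 1.48 and H2-Eb1 at 1.22 and 1.10 called higher. The class II list was also higher in GFPhi than in GFPlo cells, at 0.49 and 0.38 in the sorts, with H2-Eb1 at 0.68 and 0.82. Class II genes are therefore not taken here as markers of immune cells, and which cells carried them was not tested. Markers of B and plasma cells were at 0.61 over 15, with 3 called, among them Jchain at 1.44 and 1.84. The T cell count was 2 with median centring and 16 on the scanner's processed signals, and that of B and plasma cells 0 and 7. With no signal filter the B and plasma cell median was 0.09. The MHC class II count was 1 with median centring.

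Mast cell proteases were lower. Mcpt1 had a signal of 552 in deleted against 2726 in control RNA on array 1 and 516 against 2825 on array 2, a 4.68-fold difference, Mcpt2 was at -2.13 and -2.34 and Mcpt4 at -1.94 and -1.84. The whole list of 25 measured myeloid and mast cell markers was at -0.03, with 3 called lower and 1 higher. Pancreatic and blood markers were above 0 in 12 of 16, at a median of 0.13. The 3 called higher were the haemoglobin genes Hba-a1 at 1.36 and Hbb-b1 at 1.33 and the platelet gene Pf4 at 1.38, and this count was 0 with median centring and 6 on the scanner's processed signals. Markers of fibroblasts and matrix were at 0.05 over 19, those of muscle, vessels and nerves at 0.04 over 18, and general epithelial markers at 0.30 over 23, with Epcam at 0.56. Among the last, Cldn2, a claudin of the crypt, at -1.23 and Elf3 at -1.17 were called lower. Epcam signals were 151944 and 109668 in deleted and 89323 and 79754 in control RNA, so both RNAs carried this epithelial marker, and the part of other cells in the differences between them was not tested.

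Defence genes of the epithelium split into 2 directions. Of 29 measured acute phase and antimicrobial genes 5 were called higher and 5 lower, at a median of 0.00. Those called lower include Ang4, counted above among Paneth genes, and S100g, which the list holds although its product carries calcium. The serum amyloid gene Saa2 was 13.6-fold higher at 3.65 and 3.87, Saa1 was at 2.45 and 2.69 with a second probe at 4.13, and Ido1, which degrades tryptophan, was at 2.46 and 2.29. Reg1, a secreted lectin, was the lowest of all measured genes, at -4.0 and -3.36 or 12.8-fold lower, and S100g, the calcium carrier calbindin-D9k, was at -2.65 and -2.68. Regenerating epithelium genes had a median of 0.12 over 39 measured members, 23 above 0 and 16 below, the lowest at -0.88. Called higher were 5 and lower 0, led by Clu and by Spp1, osteopontin, at 2.27 and 2.53. Immunity-related GTPases that interferon gamma induces made up the 4 calls in the interferon list, all lower. Igtp was at -2.02 and -2.01, Tgtp1 at -1.87 and -2.10 (a second probe read -0.48), Irgm1 at -1.83 and -1.69 and Iigp1 at -1.46 and -1.74. The list as a whole was at -0.06 over 48 measured genes, 25 below 0, and on array 1 its median was 0.01.

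Stress genes split as well. Heat shock genes were below 0 in 17 of 20, at a median of -0.60, with 5 called lower and 0 higher. Hspa1a, the inducible HSP70, had a signal of 660.2 in deleted against 7234 in control RNA on array 1 and 740.2 against 6632 on array 2, an 8.36-fold difference. Its neighbour Hspa1b, a near-identical copy, was at -2.34 and -2.17 with a second probe at -1.02. Hsph1 was at -1.51 and -1.61 and Hsp90aa1 at -1.39 and -1.27. The pair TTCNNGAA, 2 facing units of the heat shock element, was in the promoter of 3 of 15 members, against 7.28% of measured genes and 8.11% of all genes, and the holders were Hsph1, Hspd1 and Hspe1. The windows of the chaperonin genes Hspd1 and Hspe1 overlap on opposite strands. Hspd1 was called at -1.07 and -1.04, while Hspe1 at -1.21 and -0.90 was not. That of Hspe1 is shown because both genes lie beside it, and a second match in it stands in lower case.
Hspe1 (chr1:55088033-55088112, plus strand): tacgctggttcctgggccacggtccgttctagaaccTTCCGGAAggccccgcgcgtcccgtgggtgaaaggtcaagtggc
In contrast, immediate early and AP-1 genes were above 0 in 32 of 38, at a median of 0.54, with 5 called higher and 1 lower. Klf4, a factor of differentiated epithelium, was at 1.75 and 1.73, Fos at 1.12 and 1.6 and Jun at 1.31 and 1.35, and Myc was the 1 called lower. With median centring 0 members of this list were called.

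Lipid and xenobiotic genes showed single large differences. Cholesterol synthesis genes were above 0 in 23 of 30 at a median of 0.31, with Insig2, a retention protein of SREBP processing, at 1.73 and 2.24, and the synthase gene Hmgcs1 at 0.96 and 0.73. Fatty acid synthesis genes were at -0.15 over 21 measured members, 12 below 0 and 9 above. The desaturase genes Fads1 at -1.34 and -1.39 and Scd2 at -1.31 and -1.33 were called lower, while Acacb was at 0.97, with a second probe at -0.08. Genes of fatty acid oxidation and targets of PPAR were at 0.10 over 44, 26 above 0 and 18 below. With median centring this median was -0.04. The 2 called, both higher, were Vnn1, pantetheinase, at 2.00 and 2.20 and Pdk4, the kinase that holds back pyruvate oxidation, at 2.15 and 1.52. Bdh1 lay the other way at -0.84, with a second probe at -0.22. Cyp2c55, a cytochrome P450 gene, was 8.58-fold lower at -3.12 and -3.08, while Cyp3a11 was at 1.5 and 1.13 and Cyp3a44, a near-identical relative, at 1.61 and 1.34. A second Cyp3a44 probe read 3.36 and 3.49. Cyp1b1, another target of the aryl hydrocarbon receptor, was at -2.01 and -1.55, opposite to Cyp1a1.

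**Figure D3:**
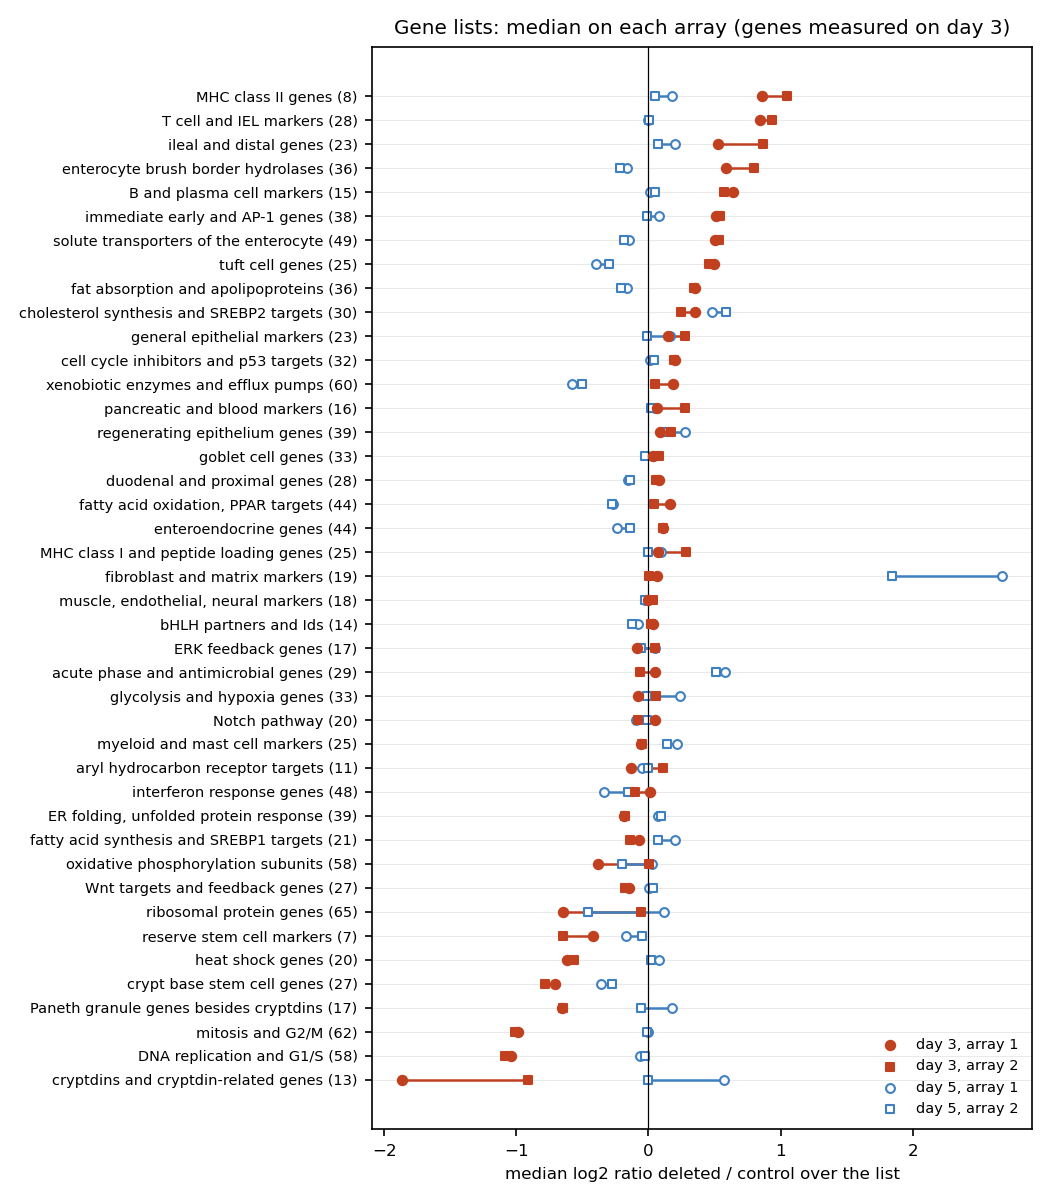
Median log2 ratio of deleted over control over the measured members of 42 gene lists (number of members in brackets) on each array of day 3 (filled red) and day 5 (open blue), circles for array 1 and squares for array 2, ordered by the mean over the day 3 arrays; fibroblast markers are highest on day 5. On day 3 the lists run from cryptdins at -1.40 to MHC class II genes at 0.98, and day 5 values of most lists lie nearer 0.

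The genes with the largest ratios were few and far from the rest. Of the 276 called higher, 42 had a mean of at least 2, or 4-fold, and of the 274 called lower, 20 did. The highest was H2-Bl, an MHC class I gene that RefSeq lists as a transcribed pseudogene, read by a probe at chr17:35688197-35688256 (mm8, minus strand), with signals of 134590 in deleted against 4391 in control RNA on array 1 and 147276 against 3574 on array 2, a 36.5-fold difference. Its 2 other probes read 3.45 and 4.22, and probes of this gene family can read more than 1 member. Tmigd1, an adhesion protein of the brush border, was 17.6-fold higher, Abhd1 13.2-fold, Pmp22, a membrane protein of epithelial junctions, 12.6-fold, and the carbonyl reductase gene Cbr3 11.3-fold. Ly6m was at 3.06, Frmd3 at 2.55 and Npl, a lyase of sialic acid, at 2.47. For Etnk2 at 2.92, Fam160b1 at 2.61, Aldh4a1 at 2.46 and Bnip5 at 2.44 another probe of the gene read much less, at -0.02, 0.22, 0.40 and -0.07.

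At the other end, ccdc198 was at -3.17 and Rpgrip1 at -3.03, with a second Rpgrip1 probe at -2.62. The ribonucleases Ang6 and Ang2, near-identical relatives of Ang4 whose probes can read each other, were at -3.05 and -2.34. Xlr3c, a gene of the X chromosome, was at -2.27, and its deleted signal cleared the background on 1 array. Gcnt1, a glycosyltransferase gene, was not well above background in deleted RNA, where only a bound holds, at least 4.89-fold lower. Its 2 other probes were higher in deleted RNA, at 0.70 and 0.62, so the direction for this gene depends on the probe.

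Set beside day 5, the decrease of Ascl2 and Olfm4 was seen on both days and most of the rest was not. Olfm4 was at -2.12 on day 3 and -2.31 on day 5. Gkn3 was lower on each day (-1.24, then -1.44), while Clu (2.42, then 2.47) and Spp1 (2.40, then 2.33) were higher on each. The replication and mitosis lists were at -1.05 and -0.99 on day 3 and at -0.05 and -0.01 on day 5, cryptdins at -1.40 and 0.18, brush border genes at 0.76 and -0.24, tuft cell genes at 0.48 and -0.34 and T cell markers at 0.93 and -0.02. Heat shock genes were at -0.60 and 0.08, and Mki67 was at -1.22 and 0.09. Crypt base stem cell genes were at -0.72 on day 3 and -0.30 on day 5, below 0 in 22 and 23 of 27. Fibroblast and matrix markers moved with the day as well, at 0.05 over 19 measured genes on day 3 and at 2.26 on day 5 (2.68 and 1.84 on its 2 arrays), and their part in the differences between the days was not tested.

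**Figure D4:**
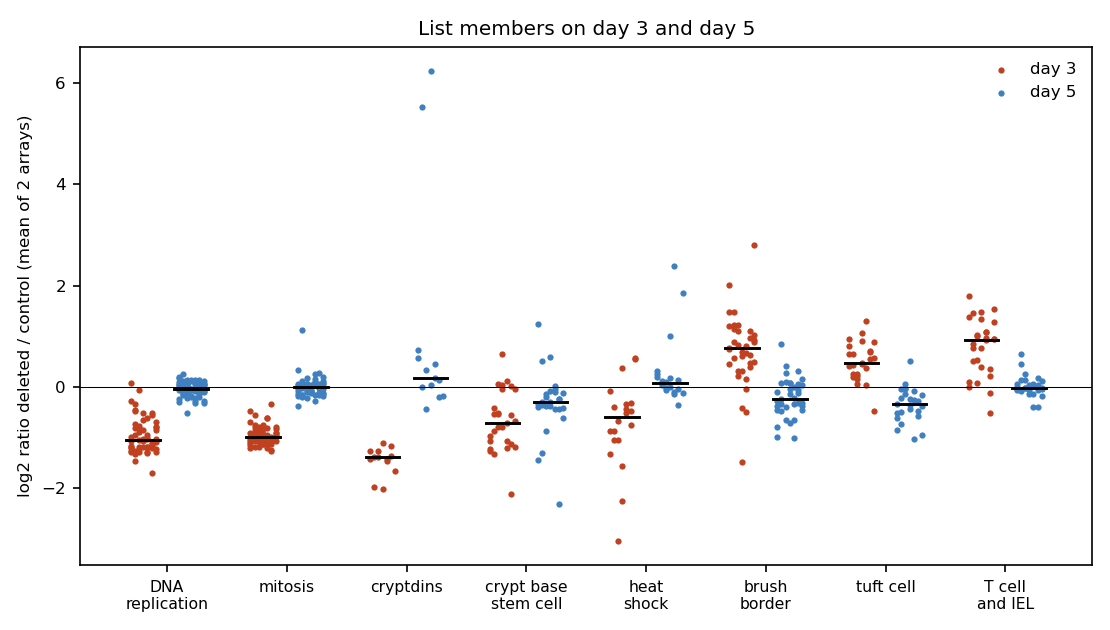
Log2 ratio of deleted over control (mean of 2 arrays) of each measured member of 8 gene lists on day 3 (red) and day 5 (blue), with a bar at the list median. All 62 mitosis genes and all 13 cryptdins lie below 0 on day 3, while their day 5 values straddle 0, and 2 cryptdin-related genes reach 5.54 and 6.25 on day 5.

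Of the 273 genes called higher that were also measured on day 5, 13 were at least 2-fold higher on both day 5 arrays (4.76%) and 14 at least 2-fold lower, against 1.17% higher among all 16019 genes measured on both days. Of 271 called lower, 10 were 2-fold lower on day 5 (3.69%, against 0.705% of all) and 10 were 2-fold higher. Among the called genes the opposite direction on day 5 was about as frequent as the same one. H2-Bl was at 5.19 on day 3 and -1.70 on day 5, Ada at 4.27 and -1.42, Slc28a2 at 3.89 and -1.54 and Pmp22 at 3.65 and -1.96. Tmigd1 kept its direction at 4.14 and 1.5, as did Saa1 at 2.57 and 3.78.

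The difference between the days was tested with limma, where the spread can come only from the 2 sorts and the deletion pairs are assumed to vary like them. For tested genes that did not pass the signal filter in the sorts, that spread is one of background. Of 17566 genes tested, 4736 (27.0%) passed at a Benjamini-Hochberg adjusted p under 0.05, 2098 higher and 2638 lower on day 3, and 7221 had an unadjusted p under 0.05. On the scanner's processed signals, and likewise with median centring, limma called 0 genes (3596 and 2927 at an unadjusted p under 0.05), so the count does not bear reading as a number of genes that differ. The days lay on different slides and scans, and each had 1 RNA pair, so day, slide and pair of mice cannot be told apart.

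Beside the sorted cells, called genes were set against all 10241 genes measured on day 3 and in the sorts, of which 34.15% were higher and 34.8% lower in GFPhi cells in both sorts. Of 242 genes called lower in the deleted epithelium, 82 were higher in GFPhi in both sorts (33.9%) and 61 were lower (25.2%). Olfm4 was higher in GFPhi in both sorts, at 1.24 and 0.61, and so was Ascl2, at 0.36 and 0.36. Of 146 genes called higher, 52 were higher in GFPhi in both sorts (35.6%) and 65 were lower (44.5%). These shares have no test. The crypt base stem cell list, at -0.72 in the deleted epithelium, was at 0.71 and 0.61 in the sorts, and the mitosis list, at -0.99, was at 0.14 and -0.02. Since crypt base lists were drawn from sorts of Lgr5-GFP cells like these, the values of that list in the sorts are not independent evidence.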

How the data were processed

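RNA of deleted and control epithelium was hybridised to two-colour Agilent arrays, each dye orientation once. The deposited scanner files hold 1 intensity per spot and dye with its local background and, per the file headers, a log10 ratio of Cy5 over Cy3. Here the mean intensities were background-corrected with limma 3.58.1 (R 4.3.3; normexp, offset 50), loess-normalized within each array with control spots at weight 0, and expressed as log2 ratios turned to deleted over control. Outlier spots were left out, spots of a probe were averaged, and a gene was read by its brightest probe. The deposited series matrix holds the authors' log2 ratios, already turned to deleted over control (r of 0.9499 to 0.9994 with the scanner's turned ratio over the 8 arrays). How they were centred, the sources used here do not say.

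Names were updated through RefSeq for 23103 probes by accession and 2972 by older symbol; 6943 symbols were current and 8156 names were kept as deposited. Probe positions are on mm8, as the deposited files give them. Promoter sequences are RefSeq's, GRCm38.p6. Levels of different probes were not compared. A bound for a dim gene sets the bright RNA against the lowest signal among probes well above background.

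Day 3 minus day 5 was fitted with lmFit and eBayes over the 4 RNA pairs, arrays of a pair averaged first, with Benjamini-Hochberg adjustment. Nothing says that the RNA pairs came from single or several mice, so its p-values measure only the spread between the sorts. Tested on simulated data with 200 changed genes among 17233, this fit recovered 0% of changes of 0.5 on the log2 scale, 24% of 1, 96% of 2 and 100% of 4, with 8 false calls. The simulation gave the 4 RNA pairs of a gene the same spread. It therefore cannot tell whether the deletion pairs vary like the sorts, nor how many calls in the real data are false.

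The genes named are Ascl2 and Olfm4, the 20 with the largest ratio in each direction among those called, up to 6 members of each list with the largest ratio, a set of markers (Lgr5, Muc2, Lyz1, Chga, Dclk1, Sis, Mki67, Axin2, Cyp1a1), the 10 in each direction with the smallest p between the days, and up to 6 with opposite signs on the 2 arrays. Predicted genes and clones were counted and not named. The arrays, lists and rules were chosen with earlier results of these data known. Alternatives were another background correction, normalization, signal filter, probe rule and threshold, the scanner's and the series matrix values, and each array alone. The number of arrays limits the precision.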

Additional observations from a re-analysis of the deposited data

Results flagged for a closer look

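The difference between day 3 and day 5 passed limma's test for 4736 genes, with 1 RNA pair a day and a spread taken from the 2 sorts of other cells, and for 0 genes on the scanner's processed signals or with median centring (3596 and 2927 at an unadjusted p under 0.05). The genes below stood first in that fit and are given as a description. Among them H2-Bl, Pmp22, Ly6m, Pdk4, Cyp3a41a, Cyp3a44, Defcr-rs2, Defcr-rs10, Col3a1, Col1a1 and Cyp1b1 did not pass the signal filter in the sorts. The spread of such genes is that of background, so their place in the fit does not measure how sure a difference is. The difference was positive for H2-Bl (6.89, from 5.19 on day 3 and -1.70 on day 5), Ada (5.69), Pmp22 (5.61), Slc28a2 (5.43), Ly6m (4.78), Pdk4 (4.196) and Abhd1 (3.89). It was positive as well for the near-identical cytochrome genes Cyp3a41a (4.07), Cyp3a44 (3.83) and Cyp3a16 (3.83), whose probes can read each other.

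The difference was negative for Defcr-rs2 (-8.28) and Defcr-rs10 (-7.53), which are near-identical as well. It was negative for the matrix genes Col3a1 (-6.18, from -1.07 on day 3 and 5.11 on day 5), Col1a1 (-5.73), Col1a2 (-5.42), Dcn (-4.72) and Sparc (-3.75), and for Saa3 (-4.89), Cyp1b1 (-4.43) and Slpi (-4.08).

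The medians of 14 lists lay on one side of 0 on both day 3 arrays and on the other side on both day 5 arrays, and the difference between the days was not tested for them. Taken over the members' mean ratios, they were -0.30 on day 3 and 0.00 on day 5 for Wnt targets (-0.15 and -0.18 on the day 3 arrays). They were 0.0297 and -0.08 for helix-loop-helix partners, 0.0847 and -0.19 for enteroendocrine genes, and 0.48 and -0.34 for tuft cell genes. Enterocyte lists were at 0.76 and -0.24 (brush border), 0.35 and -0.19 (fat absorption), 0.51 and -0.12 (solute transporters) and 0.10 and -0.18 (duodenal genes). The others were at -0.60 and 0.08 (heat shock), -0.15 and 0.08 (endoplasmic reticulum), -0.15 and 0.14 (fatty acid synthesis), 0.10 and -0.24 (fatty acid oxidation), 0.17 and -0.56 (xenobiotic enzymes) and -0.0278 and 0.13 (myeloid and mast cells).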

How the results depend on the processing

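The counts of genes called on day 3 (276 higher, 274 lower) were 561 and 530 on the scanner's processed signals, 100 and 131 with median centring, 419 and 433 of 13279 genes on series matrix values, 924 and 1187 at 1.5-fold on each array and 38 and 18 at 4-fold. With 1 array left out they ranged from 378 to 402 higher and from 434 to 445 lower, since 1 array is an easier criterion. The share of genes with 1 sign on both arrays (77.25%) was 79.59%, 42.57% and 81.84% on those first 3 settings, 67.03% with no signal filter and 78.1% with the median over probes. The count for day 3 minus day 5 (4736) was 2314 with an offset of 10, 0 on the scanner's signals and 0 with median centring (3596 and 2927 by limma at an unadjusted p under 0.05), 1112 of 6512 on series matrix values and 8254 with the RNA pair as a random block. It ranged from 5072 to 5143 with 1 array of each pair left out, and was 2410 of 10241 where genes also passed the signal filter in the sorts, an alternative chosen after seeing the data. Gcnt1 turned to 0.56 with the median over its probes. Of 276 named genes, 274 kept their sign with median centring and 275 on the scanner's signals. With median centring 36 of 42 list medians kept their sign; those of helix-loop-helix partners, ERK feedback, goblet cell, MHC class I, fatty acid oxidation and muscle, vessel and nerve genes fell below 0. Where a cause is not named here, the cause was not tested. No paired analysis was possible because the 2 arrays of a day carry the same RNA pair, so their numbers pair no separate samples; each ratio already sets deleted against control RNA on 1 array. Signal over background limits dim genes, which have only a bound.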

Other observations

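The groups below were put together after their values were seen and have no test. Enzymes and carriers that handle extracellular nucleotides and adenosine stood among the genes with the largest increase on day 3. Enpp3, which splits nucleotides, was at 2.02, Nt5e, which forms adenosine, at 2.81 (0.53 on a second probe), the nucleoside carrier Slc28a2 at 3.89 and Ada, which deaminates adenosine, at 4.27. On day 5 these 4 genes were at -0.99, -0.38, -1.54 and -1.42.

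Genes of the gasdermin C family, whose products can form membrane pores, stood among those with the largest decrease. Gsdmc2 was at -2.21, Gsdmc at -2.18 and Gsdmc3 at -2.15, and as near-identical copies they may be read by each other's probes. A few very bright genes had opposite signs on the 2 arrays, such as the keratin gene Krt8 at -0.70 and 0.88 and the respiratory chain gene Uqcrh at -0.98 and 0.85.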
